A study of Homo sapiens with 6 samples.

Results

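To describe the integrins of HCT116 colorectal cancer cells with and without p21, all genes of the measured panel whose symbol starts with ITGA or ITGB were taken. These were 18 of 770 genes, of which 10 encode alpha subunits, 7 encode beta subunits and 1, ITGB1BP1, encodes a cytoplasmic protein that binds the tail of the beta1 subunit and is not a subunit itself. RNA of 3 biological replicates of HCT116 wild-type (WT) cells and 3 of HCT116 p21-/- cells was counted on the NanoString PanCancer Progression Panel, in which gene-specific probes carry a fluorescent barcode and no amplification is used. HCT116 cells come from a colorectal carcinoma, and the isogenic p21-/- line lacks an intact CDKN1A, the gene of the cell cycle inhibitor p21. Neither line was treated. The labels give RPMI with fetal bovine serum and antibiotics for all cells, whereas the study's methods give DMEM for HCT116 p21-/- cells, so medium and genotype cannot be told apart if the methods apply. The methods name 1 HCT116 p21-/- line, while the labels speak of clones without assigning replicates to them, and the p-values measure the spread between cultures of these lines only.

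Integrins are transmembrane receptors made of an alpha and a beta subunit that attach cells to the extracellular matrix or to other cells. The alpha subunit largely sets the ligand: alpha3, alpha6 and alpha7 bind laminins of the basement membrane, alpha1, alpha2 and alpha11 bind collagens, and alpha5 and alpha8 bind the RGD motif of fibronectin and related proteins. Beta1 pairs with many alpha subunits, beta4 pairs only with alpha6 and anchors epithelial cells in hemidesmosomes, and beta3, beta6 and beta8 pair with alphaV. Beta2 and beta7 are subunits of leukocyte integrins, of which alphaM is the alpha chain of the myeloid receptor Mac-1.

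The deposited values are normalized counts, and low values are replaced by a floor that is the same for all genes of a sample. This floor, set 2 SD over the mean of the negative controls, was 29.81 to 34.94 in WT and 25.66 to 33.84 in p21-/- samples. A gene at the floor has no measured level, and since the floor was not scaled as other values were, such a gene could have reached 39.2 to 44.9 normalized counts in WT samples. The samples held 867421 to 1335466 barcode counts over the genes above the floor. CDKN1A had 4133, 5659 and 4312 normalized counts in WT and 459.6, 409 and 388 in p21-/- replicates (values of replicates 1, 2 and 3 are given in this order throughout). All 6 panel genes of a list of colorectal epithelium markers were above the floor in every sample, with summed values of 31021 to 35213 in WT and 16479 to 17153 in p21-/- cells, a difference whose part in the results was not tested. Within these sums EPCAM went the other way, with a log2 fold change of 0.22 (adjusted p = 0.0444). Of 3 leukocyte markers on the panel, PTPRC was at the floor in all 6 samples, CD163 in all but p21-/- replicate 2 (33.7), and CYBB had 46.7, 58.4 and 44.4 normalized counts in WT and was floored in p21-/- samples. In such bulk RNA, fewer cells that carry a transcript and less of it per cell cannot be told apart. The spiked positive controls had geometric means of 1601 to 1861 counts in WT and 1102 to 1261 in p21-/- samples, and the part of this difference in the results was not tested.

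Of the 18 genes, 9 were above the floor in all samples (ITGA1, ITGA2, ITGA3, ITGA5, ITGA6, ITGA7, ITGB1, ITGB4 and ITGB1BP1), 3 were at the floor in all samples (ITGA8, ITGA11 and ITGAM) and 6 were at the floor in some (ITGA9, ITGB2, ITGB3, ITGB6, ITGB7 and ITGB8). At an adjusted p below 0.05 in limma, 10 of the 18 genes passed, where 47.8% of all genes did. There were 8 downregulated integrin genes in HCT116 p21-/- cells, against 26% of all genes, and 2 upregulated ones, against 21.8% of all genes. WT and p21-/- values did not overlap for 11 of the 18, where this held for 52.2% of the panel. Among the 11 are ITGA9 and ITGB3, which were separated from WT floors only and not from the limits of these floors. The median log2 fold change of all 18 was -0.12, as over the panel, which is the value of a gene floored in every sample. That of those 9 with no floor value was -1.10, and that of all 446 genes of the panel with none was -0.05. Every one of these 9 varied more between WT replicates, with coefficients of variation of 3.23% to 21.4%, than between p21-/- replicates, with 0.474% to 10.8%. WT replicates also differed more over the panel genes above the floor. There, chi-square per degree of freedom of barcode counts between 2 replicates was 30.6 to 80.6 in WT and 2.06 to 4.95 in p21-/- cells. WT replicate 1 gave the lowest WT value for 7 of the 9 integrin genes, a share that was not computed over the panel.

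**Figure D1:**
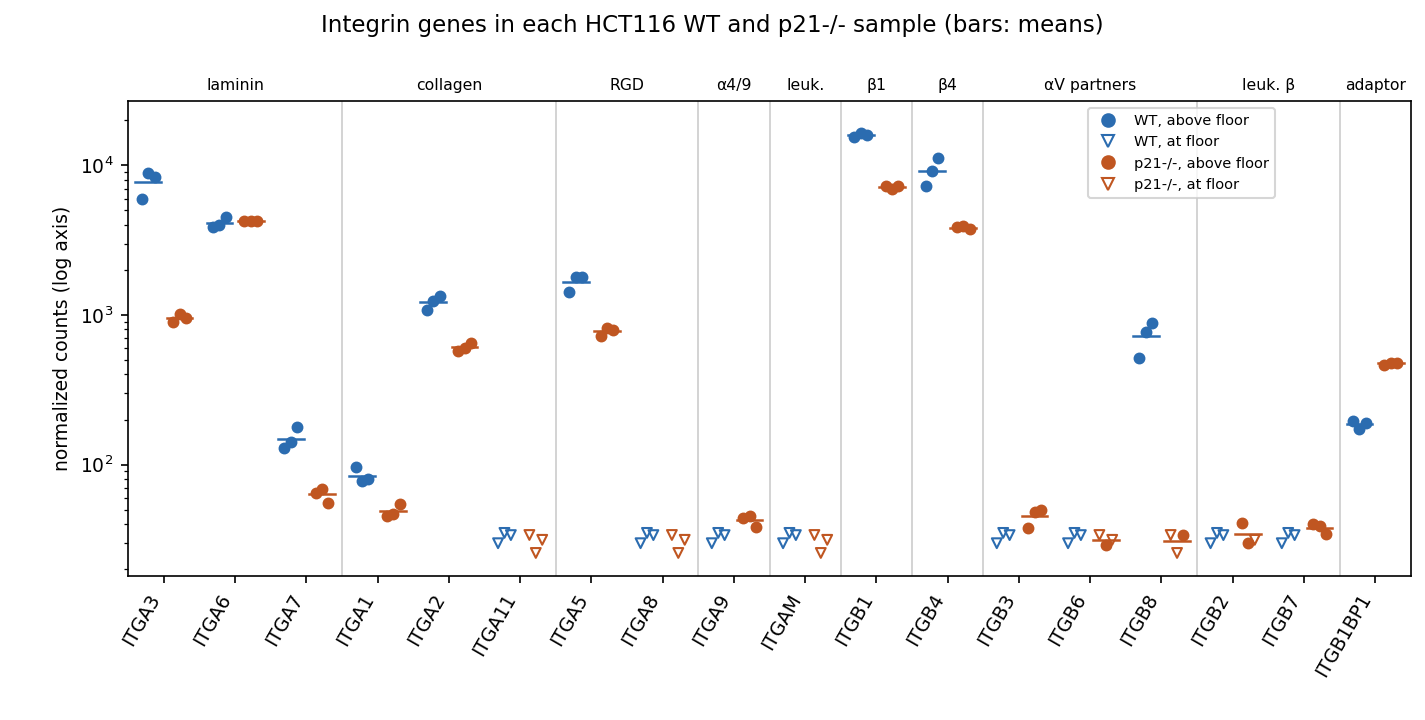
Normalized counts of the 18 integrin genes in each WT (blue) and p21-/- (orange) sample, on a log axis, grouped by ligand of the alpha subunit or partner of the beta subunit. Filled points are values above the floor, open triangles are floor values and short bars are means. ITGA3 and ITGB8 show the widest gaps between the lines, and 8 genes sit at the floor in all WT samples.

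Among the laminin-binding alpha subunits, ITGA3 and ITGA7 were downregulated in HCT116 p21-/- cells, whereas ITGA6 did not pass the test. ITGA3, which forms the laminin receptor alpha3beta1, had 5939.9, 8859 and 8396 normalized counts in WT and 902, 1008 and 958 in p21-/- replicates. All p21-/- samples lay far below all WT samples, with a mean 12.4% as high. The log2 fold change was -2.99 (standard error 0.124, adjusted p = 9.32e-12 from limma).

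ITGA7, a laminin receptor best known from muscle, was low, with 128, 142 and 178 normalized counts in WT and 64.7, 69.2 and 55.7 in p21-/- replicates. The lines did not overlap, and the p21-/- values stayed above the floor. Its log2 fold change was -1.22 (standard error 0.181, adjusted p = 2.8e-05).

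ITGA6, the alpha subunit that pairs with both beta1 and beta4, had 3894, 3971 and 4544 normalized counts in WT and 4256, 4245 and 4217 in p21-/- replicates. The p21-/- samples lay within the WT range and close to each other. The log2 fold change was 0.04 (standard error 0.0845, 95% confidence interval -0.14 to 0.22, adjusted p = 0.715). This value depended on the scaling between samples. It was 0.25 after median scaling (adjusted p = 0.0101), 0.25 after quantile normalization (adjusted p = 0.0212) and -0.35 after scaling to 30 housekeeping candidates (adjusted p = 0.0011). These candidates, listed from general knowledge since the table marks none, had a median log2 fold change of 0.38 in the deposited values, with 19 higher and 3 lower in p21-/- cells.

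Of the collagen-binding alpha subunits, ITGA1 and ITGA2 were downregulated and ITGA11 was at the floor in all 6 samples. ITGA1 and ITGA2 lie on the same strand of chromosome 5. ITGA2, the alpha chain of the collagen I receptor alpha2beta1 of epithelial cells and platelets, had 1077, 1247 and 1329.6 normalized counts in WT and 573, 602 and 654 in p21-/- replicates. The lowest WT value was well above the highest p21-/- value, and the mean of p21-/- cells was 50.0% as high. The log2 fold change was -0.99 (standard error 0.108, adjusted p = 9.23e-07). ITGA1, which binds collagen IV as alpha1beta1, had 96.4, 77.5 and 79.5 normalized counts in WT and 45.3, 46.4 and 54.9 in p21-/- replicates. Before normalization these were 64 to 69 barcode counts in WT and 42 to 62 in p21-/- samples, so the lines were separate but near each other. Its log2 fold change was -0.78 (standard error 0.171, adjusted p = 0.0011).

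ITGA5, the alpha chain of the fibronectin receptor alpha5beta1, had 1421, 1789 and 1801 normalized counts in WT and 718, 816 and 794 in p21-/- replicates. The lines did not overlap, and the mean of p21-/- cells was 46.4% as high. The log2 fold change was -1.10 (standard error 0.109, adjusted p = 3.35e-07). The other RGD-binding alpha subunit of the panel, ITGA8, was at the floor in all 6 samples, as was ITGAM, the only leukocyte alpha subunit of the panel. For ITGA8, ITGA11 and ITGAM the fit compares the floors of the samples and says nothing of expression. The alphaV subunit was not analysed here.

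ITGB1, the common partner of the laminin, collagen and fibronectin receptors named above, had 15392, 16418 and 15888 normalized counts in WT and 7258, 6980.1 and 7262 in p21-/- replicates. Replicates of each line were close to each other, and the lines were far apart. The mean of p21-/- cells was 45.1% as high, and the log2 fold change was -1.15 (standard error 0.0793, adjusted p = 4.28e-09).

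ITGB4, the hemidesmosome subunit, had 7308, 9138 and 11261.5 normalized counts in WT and 3851, 3906 and 3765 in p21-/- replicates. The WT samples spread widely while the p21-/- samples hardly differed, and the lines did not overlap. The log2 fold change was -1.24 (standard error 0.120, adjusted p = 2.51e-07).

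Of the alphaV partners, ITGB8 was downregulated, ITGB3 passed as upregulated close to the floor and ITGB6 did not pass the test. ITGB8, whose product binds latent TGF-beta as alphaVbeta8, had 512, 764 and 881 normalized counts in WT cells. It was at the floor in p21-/- replicates 1 and 2, and at 33.6 normalized counts, from 38 barcode counts, in p21-/- replicate 3. ITGB8 was therefore clearly measured in every WT sample and at or barely above background in every p21-/- sample. Against the limits of the floored p21-/- samples and the value of replicate 3 it was at least 22.2-fold lower in p21-/- cells (adjusted p = 3.14e-11), and its fitted log2 value, -4.46, depends on these floors. ITGB3, the beta chain of the vitronectin receptor alphaVbeta3, was floored in every WT sample and had 37.8, 48.2 and 49.5 normalized counts in p21-/- replicates. These values came from 35 to 56 barcode counts, and the value of replicate 1 lay below the WT floor limits. Their geometric mean was 1.09-fold that of the WT floor limits (log2 fold change 0.44, standard error 0.155, adjusted p = 0.0274). The call was lost when the floor was multiplied by each sample's scaling factor, where the log2 fold change was 0.12 (adjusted p = 0.542), and also without WT replicate 1 (adjusted p = 0.0855), WT replicate 3 (0.0709) or p21-/- replicate 3 (0.149). It was also lost after quantile normalization (0.0976), under housekeeping candidate scaling (0.217) and with a replicate block (0.0947). ITGB6, the beta chain of the epithelial receptor alphaVbeta6, was at the floor in all samples but p21-/- replicate 2, which had 29.1 normalized counts from 32 barcode counts.

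ITGA9, which pairs with beta1 and binds tenascin-C and osteopontin, was floored in every WT sample and had 44.2, 45.5 and 38.0 normalized counts in p21-/- replicates. All p21-/- values were above all WT floors, but their geometric mean was only 1.03-fold that of the WT floor limits (log2 fold change 0.36, standard error 0.146, adjusted p = 0.0519). ITGA9 passed after median scaling (adjusted p = 0.0140), quantile normalization (0.0317), trimmed mean scaling (0.0239), a pseudocount of 10 (0.048) and a constant prior variance (0.0268). It did not pass under housekeeping candidate scaling (log2 fold change 0.18, adjusted p = 0.391) or with the scaled floor (0.04, adjusted p = 0.818). The leukocyte subunits ITGB2 and ITGB7 were floored in every WT sample. ITGB2, the beta chain of LFA-1 and Mac-1, had 41.0 and 30.0 normalized counts in p21-/- replicates 1 and 2 and was at the floor in replicate 3. ITGB7, of the gut-homing receptor alpha4beta7, had 39.9, 39.1 and 34.5 normalized counts in p21-/- replicates. Neither passed the test, with adjusted p-values of 0.82 and 0.304 in limma, and for both the p21-/- values overlapped the WT floors.

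**Figure D2:**
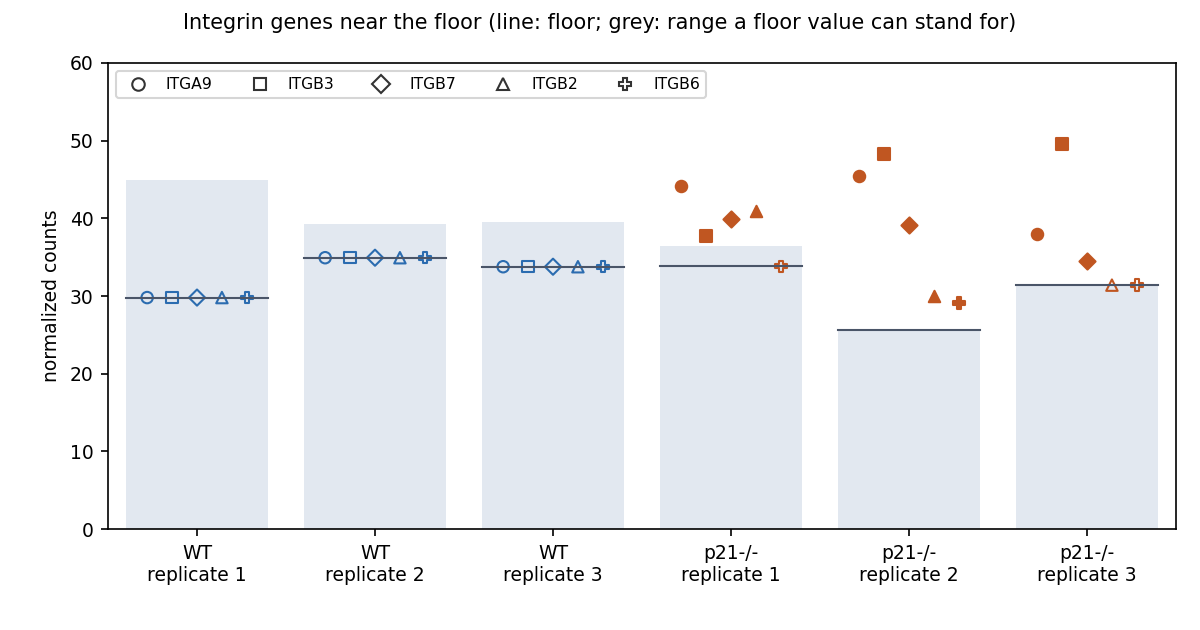
Normalized counts of the 5 integrin genes near the floor in each WT (blue) and p21-/- (orange) sample, with filled symbols for measured values and open symbols for floor values. The dark line is the floor of the sample, and the grey area is the range that a floor value can stand for. All 5 genes sit on the floor in each WT sample, while the p21-/- values reach at most 49.5, little above the WT limits of 39.2 to 44.9.

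Opposite to the 8 downregulated subunits, ITGB1BP1 was upregulated. Its product, ICAP1, binds the cytoplasmic tail of beta1 and is known to hold beta1 integrins in an inactive state. ITGB1BP1 had 196, 172 and 191 normalized counts in WT and 466, 481 and 479.6 in p21-/- replicates. The lines were far apart, with p21-/- replicates close to each other, and the mean was 2.55-fold higher in p21-/- cells. The log2 fold change was 1.35 (standard error 0.131, adjusted p = 2.6e-07).

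**Figure D3:**
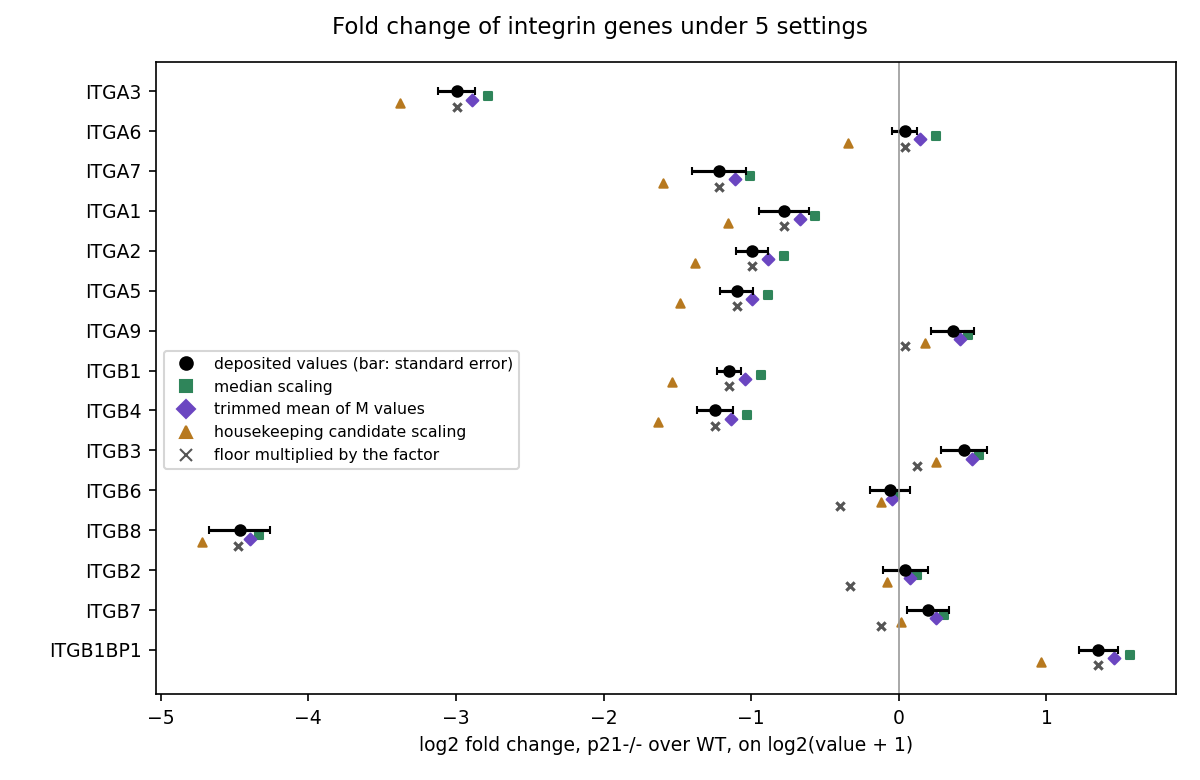
Log2 fold change (p21-/- over WT, on log2(value + 1)) of the 15 integrin genes above the floor in at least 1 sample. Black points with bars are the deposited values with the standard error, and the other symbols are the same genes under 4 other settings. The 8 downregulated genes and ITGB1BP1 keep their side of 0 under all 5 settings, whereas ITGA6, ITGB2 and ITGB7 change side.

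A scaling factor of a sample cancels in the ratio of an alpha subunit to its beta partner within a sample. Since each gene has its own probe, only the change of such a ratio between the lines can be read, not its level. Of 7 pairs without floor values, 3 did not overlap between the lines, each with an exact permutation p of 0.1, the smallest that 3 samples against 3 allow, and an adjusted p of 0.2 over 8 pairs. The log2 ratio of ITGA3 to ITGB1 was -1.37, -0.89 and -0.92 in WT and -3.01, -2.79 and -2.92 in p21-/- replicates. All p21-/- ratios lay below all WT ratios, 3.60-fold lower in the mean (difference -1.85, standard error 0.169).

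The log2 ratio of ITGA6 to ITGB1 was -1.98, -2.05 and -1.81 in WT and -0.77, -0.72 and -0.78 in p21-/- replicates. The difference was 1.19 (standard error 0.0751), a 2.28-fold higher ratio in p21-/- cells. The ratio of ITGA6 to ITGB4 was 2.43-fold higher (difference 1.28, standard error 0.121), from -0.91, -1.20 and -1.31 in WT to 0.14, 0.12 and 0.16 in p21-/- replicates. For both partners all p21-/- ratios of ITGA6 lay above all WT ratios, and a single factor per sample cannot change this. The ratio of ITGA9 to ITGB1 also did not overlap (difference 1.52, exact permutation p = 0.1), but it rests on WT floor values of ITGA9 and is not a measured ratio there. For the remaining 4 beta1 pairs the lines overlapped. The difference was 0.36 for ITGA1 (standard error 0.148), 0.15 for ITGA2 (standard error 0.0931), 0.05 for ITGA5 (standard error 0.114) and -0.08 for ITGA7 (standard error 0.172), with exact permutation p-values of 0.2, 0.2, 0.6 and 0.7.

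**Figure D4:**
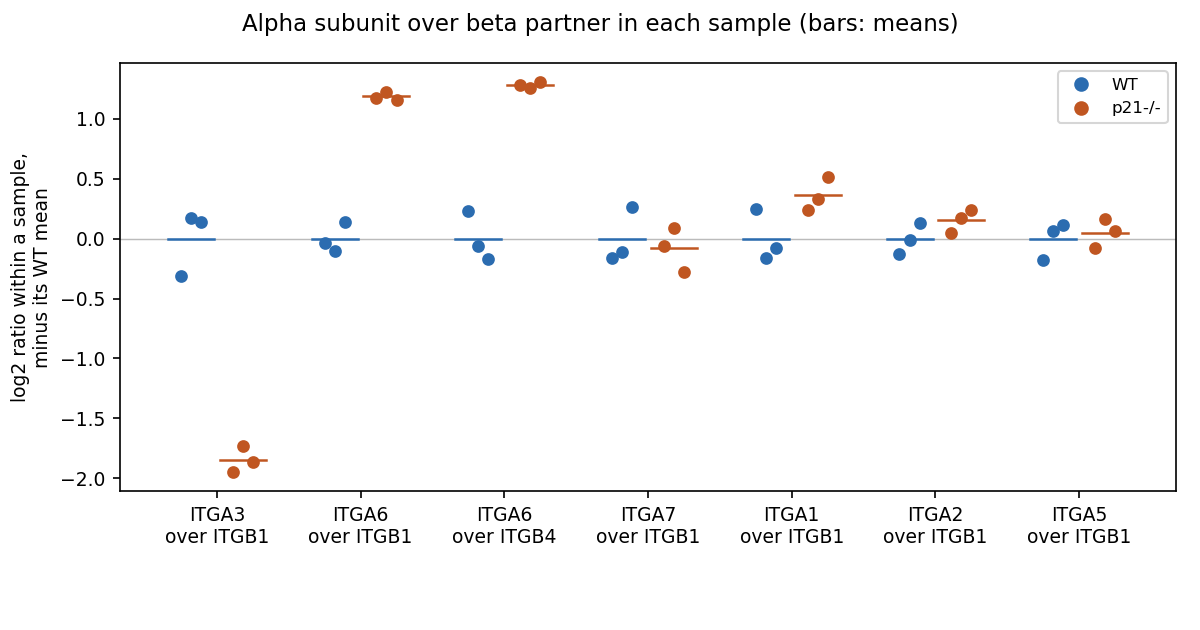
Within-sample log2 ratio of an alpha subunit to its beta partner, minus the WT mean of that pair, in each WT (blue) and p21-/- (orange) sample, for the 7 pairs without floor values. Short bars are means. The p21-/- samples lie below all WT samples for ITGA3 over ITGB1 and above them for ITGA6 over either partner, and overlap with WT for the other 4 pairs.

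The start regions of some of the integrin genes are shown as sequence background. Whether motifs in them have a part in the expression differences was not tested. RefSeq entries of build GRCh38.p14 were found for 12 of the 18 genes, with 15 entries in all, and the 250 bases before each start were searched on both strands for the E-box CACCTG, which reads CAGGTG on the opposite strand and is known to bind SNAI and ZEB repressors. They were also searched for the GC box GGGCGG, which reads CCGCCC on the opposite strand and is known to bind Sp1. Capitals mark these motifs below, and each sequence runs 5′ to 3′ on the strand of the gene.
ITGB8, chr7:20330650-20330899, plus strand: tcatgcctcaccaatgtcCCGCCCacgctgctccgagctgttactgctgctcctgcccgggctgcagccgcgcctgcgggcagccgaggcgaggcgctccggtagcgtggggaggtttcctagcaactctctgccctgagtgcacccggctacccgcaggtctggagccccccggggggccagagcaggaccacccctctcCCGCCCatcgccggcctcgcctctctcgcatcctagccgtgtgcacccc
ITGA2, chr5:52989102-52989351, plus strand: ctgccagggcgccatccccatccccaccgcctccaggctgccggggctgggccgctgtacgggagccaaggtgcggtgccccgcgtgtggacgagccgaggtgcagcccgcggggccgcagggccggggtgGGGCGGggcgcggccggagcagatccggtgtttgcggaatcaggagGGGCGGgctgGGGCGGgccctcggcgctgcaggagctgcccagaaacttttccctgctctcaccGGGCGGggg
ITGA5, chr12:54419267-54419516, minus strand: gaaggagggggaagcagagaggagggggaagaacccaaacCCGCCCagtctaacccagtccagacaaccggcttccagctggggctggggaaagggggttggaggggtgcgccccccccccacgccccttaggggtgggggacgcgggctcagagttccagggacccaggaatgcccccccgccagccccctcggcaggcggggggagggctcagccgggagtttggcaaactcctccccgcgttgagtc
ITGB1, chr10:32958231-32958480, minus strand: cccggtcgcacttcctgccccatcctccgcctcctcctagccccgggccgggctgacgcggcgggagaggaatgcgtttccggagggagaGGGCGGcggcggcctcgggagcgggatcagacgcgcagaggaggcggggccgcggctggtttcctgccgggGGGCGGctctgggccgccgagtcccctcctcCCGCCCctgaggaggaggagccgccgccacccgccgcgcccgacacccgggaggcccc
ITGA6, chr2:172427086-172427335, plus strand: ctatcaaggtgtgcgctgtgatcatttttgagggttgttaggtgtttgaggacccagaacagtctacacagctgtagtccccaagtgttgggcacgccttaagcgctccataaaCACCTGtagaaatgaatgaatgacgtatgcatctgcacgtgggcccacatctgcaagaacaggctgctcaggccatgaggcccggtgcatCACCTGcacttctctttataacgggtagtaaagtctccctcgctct

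Of the downregulated genes, 5 had an entry, and none of these held the E-box. The 4 shown held 2 (ITGB8), 4 (ITGA2), 1 (ITGA5) and 3 (ITGB1) GC boxes, and ITGA1 held none. The window before the more upstream start of ITGA6 held 2 E-boxes, 136 and 46 bases before the start, and no GC box, while that before its other start held 3 GC boxes and no E-box. The second entry of ITGB1 held neither motif. Among the other genes, the E-box was found once each in ITGA11 and ITGB6, and the entries of ITGB7 and ITGB1BP1 held neither motif. ITGA8 and ITGAM, at the floor in every sample, held 4 and 2 GC boxes. In all, 3 of the 15 entries held the E-box and 7 the GC box, where 17.5% and 42.6% of all 35116 promoters of the table did. ITGA3, ITGA7, ITGA9, ITGB2, ITGB3 and ITGB4 were not searched.

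Among the matrix ligands of these receptors, laminin chains moved both ways. Of 7 laminin chains on the panel, 3 rose and 2 fell in HCT116 p21-/- cells, where 21.8% of all genes rose and 26% fell, and the 5 chains with no floor value had a median log2 fold change of 0.75, against -0.05 over all such genes. LAMC1 and LAMA3 were among those that rose, and LAMB3 and LAMA5 fell. LAMC1, a gamma chain of many laminins, had 1100.0, 1265 and 1237 normalized counts in WT and 2065, 2174 and 2373 in p21-/- replicates (log2 fold change 0.88, standard error 0.0938, adjusted p = 7.76e-07). LAMB3 had 729, 1129 and 993 in WT and 645, 663 and 691 in p21-/- replicates (log2 fold change -0.49, adjusted p = 0.0066). The calls of LAMA3 under housekeeping candidate scaling (adjusted p = 0.15) and of LAMB3 under quantile normalization (adjusted p = 0.416) were lost. Of 11 genes on a list of collagens I, III, IV, V and VI, 2 fell, a share below the 26% of all genes. None rose, although COL6A1 passed as higher after median scaling. The list left out COL18A1, which fell (log2 fold change -1.14, adjusted p = 1.83e-06), and COL7A1 (-0.34, adjusted p = 0.264). COL1A1, a chain of collagen I, had 209, 193 and 241 normalized counts in WT and 65.8, 65.5 and 60.2 in p21-/- replicates (log2 fold change -1.73, adjusted p = 2.27e-07), and COL6A2, of collagen VI, had a log2 fold change of -0.66 (adjusted p = 0.000205).

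Of 8 RGD ligands, 5 rose and 1 fell, beside 21.8% and 26% of all genes, and the 4 with no floor value had a median log2 fold change of 0.80. THBS1, encoding thrombospondin-1, had a log2 fold change of 2.17 and FBLN5, encoding fibulin-5, of 0.85 (adjusted p = 1.5e-10 and 0.000425). TNC, encoding the alpha9 ligand tenascin-C, was floored in every WT sample and had 141, 145 and 148 normalized counts in p21-/- replicates, at least 3.51-fold higher. FN1, encoding fibronectin, the ligand of the downregulated alpha5beta1, rose with a log2 fold change of 0.76 (adjusted p = 0.000763), which did not pass under housekeeping candidate scaling (log2 fold change 0.37, adjusted p = 0.0545). FBN1 rose from the floor in all WT samples to 45.1 to 59.3 normalized counts. SPP1, encoding osteopontin, had 49.7 and 53.8 normalized counts in WT replicates 1 and 3. It was at the floor in WT replicate 2 and in every p21-/- sample. The call of FBN1 was lost with the scaled floor (adjusted p = 0.175), and that of SPP1 after quantile normalization (adjusted p = 0.158).

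Of 6 cell surface ligands of leukocyte integrins, 3 fell and none rose, beside 26% and 21.8% of all genes. ICAM1, a ligand of beta2 integrins, had 84.4, 153 and 157 normalized counts in WT cells and was floored in every p21-/- sample, which makes it at least 4.09-fold lower there (adjusted p = 1.05e-06). CDH1, encoding E-cadherin, had a log2 fold change of -3.23 (adjusted p = 9.2e-13). F11R, of junctional adhesion molecule A, had a log2 fold change of -0.34 (adjusted p = 0.00273), which did not pass after median scaling (adjusted p = 0.242).

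Of 6 cytoplasmic adaptors and kinases beside ITGB1BP1, 4 rose (FERMT2, ILK, PTK2 and TNS1) and 2 fell (PTK2B and SRC), beside 21.8% and 26% of all genes. FERMT2, encoding kindlin-2, which activates integrins through the beta tail, had 845, 1002 and 900.4 normalized counts in WT and 2400.4, 2237 and 2385 in p21-/- replicates. All p21-/- samples were above all WT samples (log2 fold change 1.36, standard error 0.0934, adjusted p = 4.27e-09). The rises of ILK, PTK2 and TNS1 did not pass under housekeeping candidate scaling, where PTK2, encoding focal adhesion kinase, turned to -0.14 from 0.25. PTK2B, encoding the related kinase PYK2, fell with a log2 fold change of -1.22 (adjusted p = 3.22e-06), and the fall of SRC, -0.31 (adjusted p = 0.0274), did not pass after median scaling (adjusted p = 0.442).

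Of 5 membrane partners, 3 fell and none rose, beside 26% and 21.8% of all genes, and under housekeeping candidate scaling all 5 fell, with CAV1 and PLAUR (adjusted p = 0.00127 and 0.00228). The 3 were the hyaluronan receptor CD44, the syndecan SDC4, a co-receptor of alpha5beta1 on fibronectin, and the tetraspanin CD82, with log2 fold changes of -1.57, -1.42 and -1.35 (adjusted p = 1.2e-09, 1.37e-09 and 2.93e-05). SDC4 had 3506, 4229 and 3970.2 normalized counts in WT and 1477, 1409 and 1473 in p21-/- replicates. These 3 calls and the falls of ITGA2, ITGA5 and ITGB1 had the same direction under each of the 4 scalings tried.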

How the data were processed

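RNA of 3 HCT116 WT and 3 HCT116 p21-/- biological replicates was analysed, grouped by their labels. The deposited values are a signal, counts that the authors normalized in nSolver to positive controls and 30 housekeeping genes, while the control entries are raw counts. The 30 candidates used here for housekeeping scaling were not level between the lines in these values (median log2 fold change 0.38). Whether they are the authors' 30 genes was not tested. The study's own list came from NanoStringDiff on raw counts. Low values were floored by the authors. One factor per sample (0.885 to 1.51 normalized counts per barcode count) turned 100% of values under 500 and above the floor into whole counts within 0.1, and the limit for a floored gene is the floor, or its product with this factor where that is higher. Bounds compare geometric means with these limits.

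The values log2(value + 1) were compared with limma 3.58.1 in R 4.3.3 (lmFit, eBayes with an intensity trend, no covariate, no filter, two-sided, Benjamini-Hochberg adjustment over 770 genes), after a test on simulated data. Fold changes on this scale understate changes of low genes. Alpha to beta ratios were compared with two-sided exact permutation tests. The floor and counting error limit the precision of low genes. Every ITGA and ITGB gene was named, and of each other list up to 3 called genes of largest change, with further genes named after their values were seen, to account for counts. Members and lists were chosen with earlier results of these data known. Alternatives were pseudocounts of 0.5 and 10, a filter, 4 scalings, a constant prior variance, a replicate block, a scaled floor and leaving out each sample. Promoter sequences came from RefSeq. Other assays of the study were not analysed here. One gene's result is not reported here.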

Additional observations from a re-analysis of the deposited data

How the results depend on the processing

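Under all 16 other settings, the 8 downregulated integrin genes (ITGA1, ITGA2, ITGA3, ITGA5, ITGA7, ITGB1, ITGB4 and ITGB8) and ITGB1BP1 passed the threshold in the same direction. The number of upregulated integrin genes was 2 as reported, 4 after median scaling (ITGA6, ITGA9, ITGB1BP1 and ITGB3) and after quantile normalization (ITGA6, ITGA9, ITGB1BP1 and ITGB7), 3 (ITGA9, ITGB1BP1 and ITGB3) with a pseudocount of 10, a trimmed mean or a constant prior variance, and 1 (ITGB1BP1) with a filter on low values, under housekeeping candidate scaling and with the floor multiplied by the factor. In the fit with a replicate block it was also 1, but same-numbered samples did not deviate together (correlations of 0.0757, -0.0544 and 0.0524), so the numbers do not pair the samples. With each sample left out it was 1 to 2. ITGB3 lost its call without WT replicate 1 (adjusted p = 0.0855 from limma), WT replicate 3 (0.0709) or p21-/- replicate 3 (0.149). Turned directions were those of ITGA6 under housekeeping candidate scaling (-0.35), ITGB2 under the same (-0.083) and with the scaled floor (-0.33), ITGB7 with the scaled floor (-0.12) and ITGB6 after quantile normalization (0.0085). With each sample left out, ITGA6 gave -0.0030 to 0.11, ITGB2 -0.090 to 0.13, the ratio of ITGA7 to ITGB1 -0.17 to 0.053 and that of ITGA5 to ITGB1 -0.040 to 0.11. The cause of these changes was not tested. For genes above the floor in every sample, median scaling moved log2 fold changes by about 0.21, the trimmed mean by 0.11 and housekeeping scaling by -0.39, and integrin genes with floor values moved less. Of all called genes 45.7% were higher in p21-/- cells as deposited, 58.4% after median scaling, 58.0% after quantile normalization, 24.7% with housekeeping scaling and 29.8% with the scaled floor. The scaled floor called 557 genes in place of 368 and 12 integrin genes in place of 10, since multiplying the floor separates the lines for genes at the floor.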
